A study of Homo sapiens with 9 samples.

Results

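The transcriptomes of 2 engineered H295R lines were compared together with that of the wild-type cells, to describe the genes that differed from wild type in the same direction in both lines. The 6 libraries titled KO and OE, of 9 in all, formed the engineered side, and the 3 libraries titled WT the other. H295R cells come from a human carcinoma of the adrenal cortex and secrete several classes of steroid. By genotype label, the WT cells carry no stated change, the KO cells are an SGPL1 knockout and the OE cells overexpress SGPL1; all 3 groups share the H295R background, and no group has a treatment. Each group has 3 libraries of poly-A selected RNA, called biological replicates by the submitters. The kind of edit, the overexpression construct, and whether each line is 1 clone or a pool are details the labels do not give, nor do they say what both lines had in common in their making. An effect of such shared handling and an effect of SGPL1 that is the same in both lines cannot be told apart with these groups.

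SGPL1 encodes sphingosine-1-phosphate lyase, the enzyme that breaks down the signalling lipid sphingosine-1-phosphate irreversibly, and the known exit from the sphingolipid pathway. A gene that follows the amount of SGPL1 differs from wild type in opposite directions when the gene is removed and when it is raised. Genes that move the same way in both lines would then not follow SGPL1 dose. SGPL1 RNA was not raised in the OE-labelled libraries (below), so the lines did not give opposite measured doses, and dose was not tested. Adrenocortical cells take up and make cholesterol and turn it into steroids with mitochondrial and endoplasmic reticulum enzymes, mostly under cAMP signals from hormone receptors.

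SGPL1 (ENSG00000166224, chromosome 10, 70815948 to 70881184, GRCh38) was read first in every library. Its level, in CPM (counts scaled to a common library total, with TMM factors), stood at 102, 83.4 and 98.1 for WT. KO had 47.2, 43.9 and 53.8 CPM, while the OE label went with 98.1, 81.3 and 101. The KO libraries were all below the other 6, by -0.97 ± 0.14 on the log2 scale against WT (here and below, ± on a log2 fold change is the SE; edgeR quasi-likelihood test, adjusted p = 0.000105). The libraries labelled OE overlapped WT, at -0.01 ± 0.14 (edgeR adjusted p = 0.966, 95% interval -0.3 to 0.27), so OE names a label here and not a measured rise of SGPL1 RNA. Counts cover the whole gene, so reads of a disrupted transcript are counted, and a vector's coding sequence adds counts only where its reads map to the gene.

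The libraries held 8006873 to 10895080 counts. All 14 adrenocortical markers examined, among them NR5A1, STAR and CYP17A1, passed the filter on low counts. Their summed levels were 4520 to 5040 CPM in WT, 7670 to 9400 in KO and 5360 to 6160 in OE-labelled libraries. The highest member, DLK1, reached 6300 CPM in a KO library, above every WT and OE-labelled sum. The sums therefore do not describe the other members. Of 10 fibroblast markers, 3 passed the filter, with sums of 48.4 to 58.3 CPM in WT, 51 to 58.2 in KO and 35.8 to 43.5 in OE-labelled libraries; LUM and POSTN had no count in any library. Epithelial markers summed to 26.8 to 32.0 CPM in WT, 16.6 to 20.7 in KO and 31.2 to 37.1 in OE-labelled libraries, with EPCAM the highest at up to 31.9. Kidney markers summed to 45.9 to 49.6 CPM in WT, 52.2 to 71.7 in KO and 47.7 to 56.3 in OE-labelled libraries, with SIX2 the highest at up to 51.3. Leukocyte and endothelial markers summed to at most 7.24 and 2.93 CPM. PTPRC, CD3E, TEK and ERG had no count, while CD79A reached 4.16 CPM. The second principal component of log2 CPM (20.3% of the variance, against 49% for the first) placed the WT libraries at 18.6 to 45.8 and all 6 engineered libraries at -38.1 to -7.1.

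Of 14150 genes tested, 166 were higher and 251 lower than WT in both lines, each called at an adjusted p under 0.05 in KO against WT and again in OE against WT. These are 1.17% and 1.77% of the genes tested, 2.95% together. In the single comparisons, 9.16% of genes were higher and 9.6% lower in KO, and 9.65% were higher and 11% lower in the OE-labelled libraries. A further 216 genes (1.53%) were called in both lines in opposite directions. The 2 comparisons share the WT libraries, so a deviation of the WT mean moves both in the same direction, and no share of genes in common is read as evidence here. Taking the mean of both lines against WT in the same fit, 681 genes (4.81%) were higher and 1019 (7.2%) lower, and all 417 genes called in both lines were among them. When the 6 engineered libraries were entered as 1 group, so that the gap between the lines counted as error, 19 genes were higher and 41 lower. Without WT replicate 1 the counts called in both lines were 68 higher and 112 lower, without WT replicate 3 72 and 117, without KO replicate 2 94 and 163, and without OE replicate 3 105 and 169. With library totals alone as the scaling, 80 genes were higher and 371 lower, a split of 17.7% higher in place of 39.8%, and that scaling shifts the median of all genes by -0.06 in KO and -0.13 in OE against WT.

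**Figure D1:**
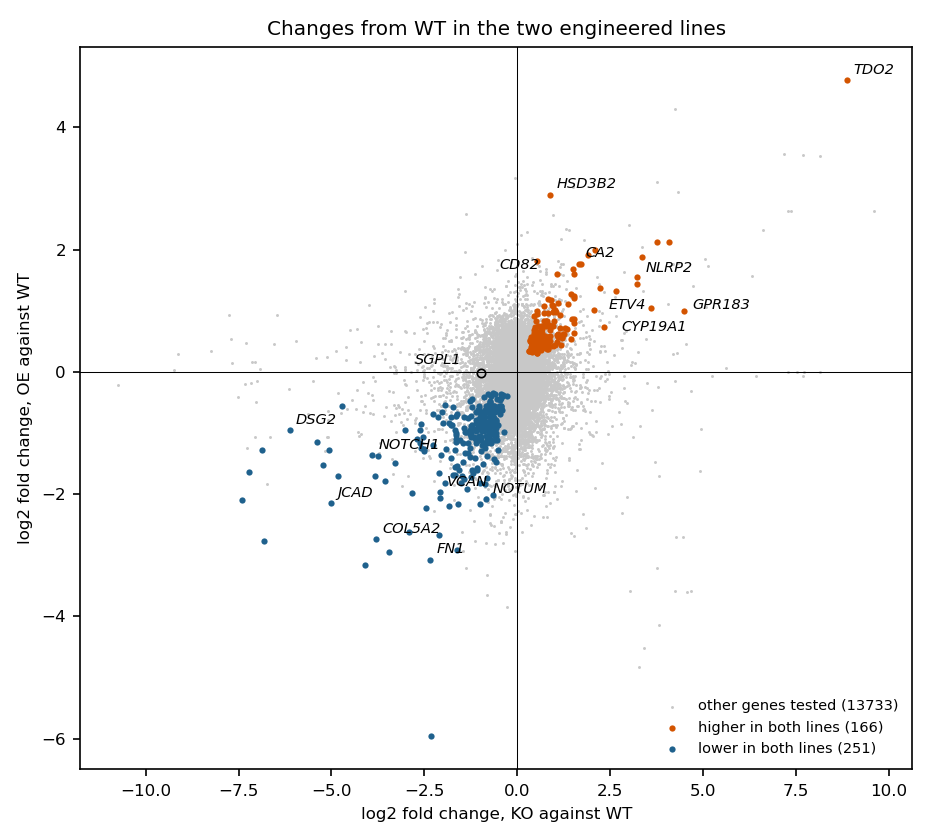
Each point is 1 of 14150 genes tested, by its log2 fold change against WT in KO (x axis) and in the libraries labelled OE (y axis). Orange points mark the 166 genes higher and blue points the 251 genes lower in both lines; the open circle is SGPL1, which was lower in KO and at the WT level in OE-labelled libraries, and TDO2 has no count in WT, so its place depends on the fit's prior count.

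The typical shared change was moderate. Genes higher in both lines had median log2 fold changes of 0.72 in KO and 0.59 in OE, and 23 of the 166 were at least 2-fold higher in both. Genes lower in both had medians of -1.01 and -0.94, and 79 of the 251 were at least 2-fold lower in both; over all genes tested both medians were -0.01. The 3 WT libraries and the 6 engineered libraries did not overlap for 162 of the genes higher in both (97.6%) and for 235 of those lower in both (93.6%). Of all genes tested 9.07% were free of overlap, 4.1% with every engineered library above WT and 4.98% below; the choice of members on the same libraries sets these shares. The call is a threshold and not a gap: CDH24 and RARG were just inside it (larger adjusted p of the 2 lines 0.04912 and 0.0492), and MPZL1 and LAMA4 just outside (0.05011 and 0.05012), LAMA4 with log2 fold changes of 1.58 and 1.38.

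Among the genes higher in both lines, some rose by much the same amount in each, among them CA2, ASS1, SFRP1 and FADS3. CA2 (ENSG00000104267, chromosome 8, 85463968 to 85481493) encodes carbonic anhydrase 2, which interconverts carbon dioxide and bicarbonate. It had 8.37, 9.29 and 8.97 CPM in WT, 28.6, 21.3 and 25.9 in KO, and 32.4, 23.0 and 29.5 for OE-labelled libraries. Every engineered library was above the highest WT library, with log2 fold changes of 1.51 ± 0.19 in KO (edgeR adjusted p = 2.59e-05) and 1.68 ± 0.19 in OE (adjusted p = 6.17e-05). ASS1 (chromosome 9, 130444961 to 130501274), which makes argininosuccinate on the way to arginine, had 26.2, 22.5 and 16.9 CPM in WT, 76.7, 61.2 and 51.7 in KO, and 42.3, 65.6 and 47.1 for OE. It rose by 1.53 ± 0.20 and 1.24 ± 0.20, and the lowest engineered library stood above the highest WT library. SFRP1, a secreted protein that binds Wnt ligands, had 5.20, 4.65 and 6.67 CPM in WT, 16.9, 13.2 and 17.3 in KO, and 10.7, 14.9 and 12.9 for OE, again with no overlap. For these genes the KO minus OE differences were -0.17 for CA2 (95% interval -0.53 to 0.19), 0.29 for ASS1 (-0.12 to 0.70) and 0.31 for SFRP1 (-0.12 to 0.74).

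FADS3, a desaturase that acts on sphingoid bases, had 14.9, 18.0 and 11.2 CPM in WT, 33.5, 27.8 and 27.3 in KO, and 28.8, 31.7 and 28.8 for OE-labelled libraries. Its log2 fold changes were 1.01 ± 0.18 and 1.02 ± 0.18, and its KO and OE levels differed by -0.01 (95% interval -0.38 to 0.36). TPM1, a tropomyosin of actin filaments, went from 2.60 ± 0.294 CPM in WT to 5.63 ± 0.202 in KO and 5.74 ± 1.41 in OE (SD, n = 3), a call that was lost without WT replicate 3 (larger adjusted p = 0.0568). MYZAP, a junction protein, rose from 10.8 ± 1.93 CPM to 28.1 ± 3.86 and 23.4 ± 2.56; it overlaps GCOM1, which was also higher in both lines (lost without 5 of the 9 libraries, larger adjusted p up to 0.133), and counting ignored strand and left out reads shared by genes, so the level of each is uncertain. CD82, a tetraspanin of the cell surface, rose from 20.5 ± 2.97 CPM to 43.3 ± 3.76 in KO and 62.9 ± 9.80 in OE, and its rise was larger in OE (KO minus OE -0.54, adjusted p = 0.0111).

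Other genes rose in both lines but by far more in KO. CYP19A1 (chromosome 15, 51208057 to 51338601), the aromatase that turns androgens into estrogens, had 18.9, 21.6 and 23.0 CPM in WT, 248, 238 and 287 in KO, and 44.9, 40.4 and 45.3 for OE-labelled libraries. The 3 groups did not overlap: the log2 fold change was 3.60 ± 0.14 in KO (edgeR adjusted p = 8.65e-11) and 1.04 ± 0.13 in OE (adjusted p = 0.000195). GPR183, a receptor for oxysterols, had 8.14, 10.4 and 6.56 CPM in WT, 176, 186 and 205 in KO, and 17.5, 12.9 and 19.3 for OE. Its rise was 4.50 ± 0.19 in KO and 1.00 ± 0.19 in OE. NLRP2, a member of the inflammasome family, had 2.49, 0.489 and 1.84 CPM in WT, 15.2, 15.3 and 15.4 in KO, and 4.29, 6.08 and 4.23 for OE, with every engineered library above WT. ETV4, an ETS transcription factor induced by growth factor signals, rose from 5.40 ± 1.49 CPM to 25.5 ± 2.29 and 13.9 ± 1.32.

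VAT1L, RERG and RBP5 had the same order, KO above OE above WT, at low levels. VAT1L, related to a synaptic vesicle protein, had 0.678, 1.96 and 0.46 CPM in WT, 9.62 ± 1.87 in KO and 2.77 ± 0.139 in OE (SD, n = 3); RERG, a Ras-like protein, 1.08 ± 0.326, 7 ± 1.26 and 2.77 ± 0.627; and RBP5, a retinol-binding protein, 3.71 ± 1.88, 15.4 ± 1.22 and 7.43 ± 0.495. Their call in OE depended on single libraries. It was lost without WT replicate 1 or 3 or OE replicate 3 for VAT1L (larger adjusted p up to 0.131) and RBP5 (up to 0.10), and for RERG without WT replicate 1 or 2 or OE replicate 2 or 3 (up to 0.0642). TDO2, which opens the ring of tryptophan, had no count in any WT library, 6.31, 7.24 and 6.42 CPM in KO and 0.66, 0.277 and 0.188 CPM in OE-labelled libraries. Against a floor of 3 counts per WT library it was at least 19-fold higher in KO; in OE it had 10 counts over 3 libraries, hardly above that floor (at least 1.07-fold), and its call there was lost without WT replicate 1, WT replicate 3 or OE replicate 1 (larger adjusted p up to 0.0665).

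**Figure D2:**
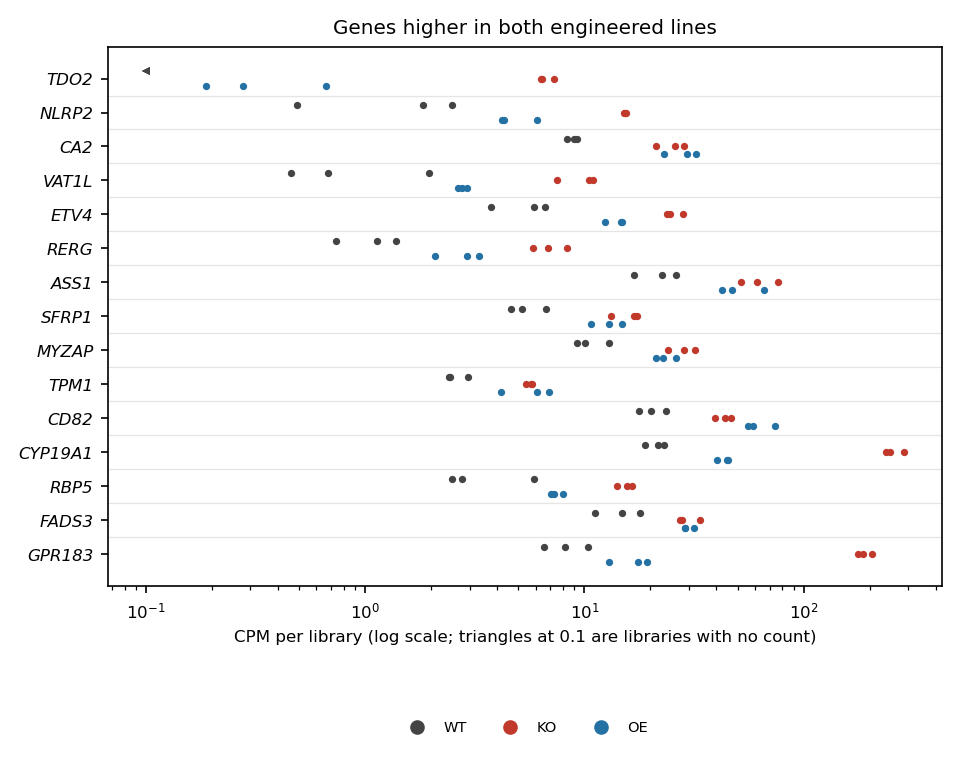
CPM in each library (log scale) for the 15 protein-coding genes with the largest change shared by both lines upward, WT in grey, KO in red and OE-labelled in blue. All engineered points lie to the right of the WT points of the same gene; in CYP19A1 and GPR183 the KO libraries lie far above the OE-labelled ones, while in CA2 and FADS3 they intermingle.

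The extracellular matrix is the secreted scaffold of collagens, glycoproteins and proteoglycans outside the cell. Of 45 matrix genes tested, 8 were lower in both lines and 0 higher (17.8% and 0%, against 1.77% and 1.17% of all genes), with a median change of -0.42 for the mean of both lines where the median of all genes was -0.01. The 8 were FN1, COL3A1, COL5A2, COL6A2, FBLN1, VCAN, MMP2 and MMP14. In the single comparisons 12 were lower and 7 higher in KO, and 26 lower and 2 higher in OE-labelled libraries. Without each library in turn, 7 to 10 matrix genes were lower in both and 0 or 1 higher. With DESeq2 8 were lower and 2 higher, and with counts corrected for length 8 were lower and 1 higher.

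Fibronectin, FN1 (chromosome 2, 215360440 to 215436073), had 11.2, 5.14 and 12.2 CPM in WT, 0.934, 1.62 and 2.99 in KO, and 1.1, 1.38 and 0.941 for OE-labelled libraries. It fell by -2.34 ± 0.41 in KO (edgeR adjusted p = 0.000585) and -3.07 ± 0.44 in OE (adjusted p = 0.000381), with no overlap. The proteoglycan versican, VCAN (chromosome 5, 83471618 to 83582303), was the most abundant of the 8, at 137, 84.9 and 181 CPM in WT, 27.0, 31.2 and 38 in KO, and 37.7, 25 and 39.5 for OE. Its fall was nearly equal in both lines, -2.07 ± 0.24 and -1.97 ± 0.23. The fibrillar collagen genes COL5A2 and COL3A1 lie next to each other on chromosome 2 (189031898 to 189225312 and 188974373 to 189012746). COL5A2 had 10.7, 11.9 and 11.5 CPM in WT, 0, 1.30 and 1.07 in KO, and 1.32, 0.83 and 2.73 for OE, and COL3A1 fell from 11.5 ± 3.08 CPM to 3.75 ± 0.0892 and 3.93 ± 1.39.

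The list also holds 2 matrix-degrading enzymes that were lower in both lines. MMP2, a gelatinase, had 12.1, 6.97 and 11.2 CPM in WT, 0.117, 1.30 and 1.07 in KO, and 3.30, 2.35 and 3.01 for OE-labelled libraries. MMP14, the membrane protease that activates MMP2, fell from 81.4 ± 12.3 CPM to 22.8 ± 4.88 in KO and 45.9 ± 4.31 in OE. KO was below OE for both genes (KO minus OE -1.77, adjusted p = 0.00768, and -1.01, adjusted p = 0.000265). The matrix glycoprotein FBLN1 fell from 87.9 ± 6.09 CPM to 48.0 ± 7.14 and 39.2 ± 2.79. COL6A2 overlapped between groups, at 23.0 CPM in the lowest WT library and 24.3 in the highest OE-labelled one, and its call was lost without WT replicate 1 or 3 or OE replicate 1 or 3 (larger adjusted p up to 0.139). WT replicate 2 was the lowest WT library for FN1, VCAN, MMP2, COL3A1, JCAD, SVIL and KIAA0319, and it also had fewer counts on long transcripts than the other WT libraries; the part of transcript length in these values was not tested gene by gene, and the call of each of the 8 matrix genes held with counts corrected for length.

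**Figure D3:**
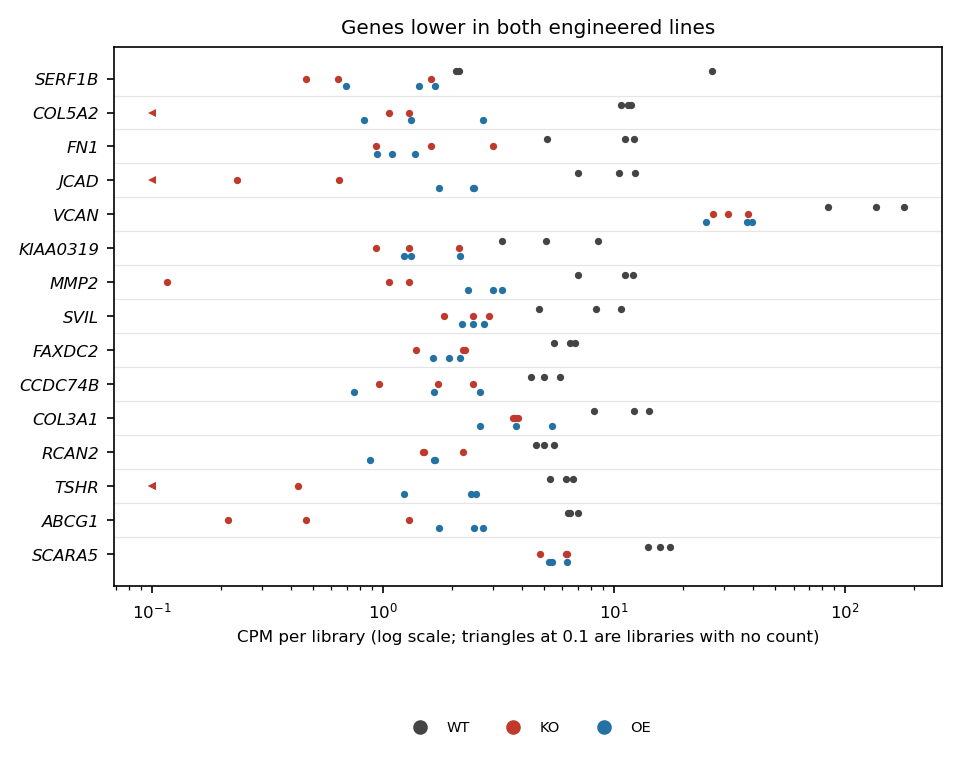
CPM in each library (log scale) for the 15 protein-coding genes with the most negative change shared by both lines; triangles at 0.1 are libraries with no count. The WT points lie to the right of all engineered points of the same gene, and SERF1B rests on 1 WT library at 26.7 CPM.

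Of 34 cell adhesion genes tested, 4 were lower in both lines (11.8%) and 0 higher, with a median change of -0.16. In KO alone 7 were higher and 7 lower, and in OE-labelled libraries 2 higher and 10 lower. Without WT replicate 1 or WT replicate 3, 2 genes were lower in both, and with counts corrected for length 4 were lower and 2 higher. DSG2, a desmosomal cadherin, was close to absent in KO: it had 12.9, 9.29 and 11.7 CPM in WT, 0.234, 0 and 0.214 in KO, and 5.83, 5.95 and 5.74 for OE-labelled libraries. The groups formed 3 separate levels, and the call in OE was lost without WT replicate 1, WT replicate 3 or OE replicate 3 (larger adjusted p up to 0.0962). CDH11, a mesenchymal cadherin, fell from 59.0 ± 6.06 CPM to 9.56 ± 2.75 and 30.5 ± 9.61, and PCDH18, a protocadherin, from 27.6 ± 3.9 to 15.8 ± 2.83 and 14.3 ± 3.1. NRCAM, a neuronal adhesion molecule, was called in both (-0.62 and -1.43), but its KO values of 78.7, 95.6 and 116 CPM reached the lowest WT value of 113, and its call was lost without WT replicate 1 or 3, KO replicate 1 or 2 or OE replicate 1 (larger adjusted p up to 0.227).

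Other genes with large falls in both lines were of varied function. JCAD, a junction protein, had 10.5, 6.97 and 12.3 CPM in WT, 0.234, 0.648 and 0 in KO, and 1.76, 2.49 and 2.45 for OE-labelled libraries. SVIL, an actin-binding protein, fell from 7.94 ± 2.99 CPM to 2.39 ± 0.528 and 2.47 ± 0.269, RCAN2, a regulator of calcineurin, from 5.03 ± 0.453 to 1.74 ± 0.413 and 1.41 ± 0.46, and SCARA5, a ferritin receptor, from 15.8 ± 1.73 to 5.76 ± 0.819 and 5.65 ± 0.57. For SVIL and SCARA5 the lines were nearly level, with KO minus OE differences of -0.05 (95% interval -0.82 to 0.72) and 0.02 (-0.45 to 0.49). The thyrotropin receptor gene TSHR had 6.67, 6.24 and 5.29 CPM in WT, 0, 0 and 0.428 in KO, and 2.42, 1.24 and 2.54 for OE; it overlaps CEP128, also lower in both (lost without 4 of the 9 libraries, up to 0.156), and the TSHR call was lost without WT replicate 1, WT replicate 3 or OE replicate 2 (larger adjusted p up to 0.093). FAXDC2, a hydroxylase-domain protein, fell by -1.67 and -1.69. KIAA0319, a neuronal membrane protein, fell by -1.94 and -1.81 and lost its call without WT replicate 3 (larger adjusted p = 0.0794), and CCDC74B, a coiled-coil protein, fell by -1.57 and -1.61 and lost it without WT replicate 1, KO replicate 2, KO replicate 3 or OE replicate 3 (up to 0.0881). SERF1B, which has a near-identical copy, had 2.15, 26.7 and 2.07 CPM in WT, so WT replicate 2 alone set its difference, and without that library the change of the mean was -0.94 (edgeR adjusted p = 0.247).

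Neural and neuroendocrine genes, which encode secretory granule proteins and neurofilaments and are expressed in H295R cells at modest levels, fell in both lines in 7 of 27 tested (25.9%), with 0 higher and a median change of -0.46. The 7 were CHGB, SCG3, PCSK1N, NEFL, NEFM, GNAO1 and MAP1B. CHGB, the granule protein chromogranin B, had 31.9, 34.4 and 35.7 CPM in WT, 15.3, 14.4 and 12.6 in KO, and 14, 10.9 and 13.8 for OE-labelled libraries. All 6 engineered values were under 16, and the log2 fold changes were -1.27 ± 0.16 (edgeR adjusted p = 3.9e-05) and -1.39 ± 0.16 (adjusted p = 0.000104). The neurofilament genes NEFL and NEFM are neighbours on chromosome 8. NEFL had 104, 86.7 and 98.0 CPM in WT, 42.6, 48.8 and 41.7 in KO, and 44.0, 37.2 and 47.9 for OE, and NEFM fell by -0.77 and -1. GNAO1, a G protein subunit of neurons, fell from 23.5 ± 5.35 CPM to 3.94 ± 1.61 and 9.81 ± 2.2, and MAP1B, a microtubule protein, from 64.1 ± 20.1 to 32.7 ± 6.67 and 26.2 ± 1.48. PCSK1N, an inhibitor of prohormone convertase, fell by -1.02 and -0.87, a call lost without WT replicate 1 (larger adjusted p = 0.0508), and SCG3, at most 4.03 CPM, lost it when any of 8 of the 9 libraries was left out (up to 0.165). Without each library in turn, 5 to 8 members were lower in both lines.

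Components and targets of Wnt signalling, a pathway active in many adrenocortical carcinomas, were lower in both lines in 4 of 24 tested (16.7%) and higher in 1, with a median change of -0.27. The 4 are DKK3, APCDD1, NOTUM and ISM1, all secreted or cell-surface proteins, and the 1 is SFRP1, described above. NOTUM, an enzyme that inactivates Wnt ligands, had 20, 21.9 and 19.9 CPM in WT, 12.5, 12 and 10.3 in KO, and 4.95, 4.01 and 5.45 for OE-labelled libraries. The 3 groups were separate, with the lower level in OE (KO minus OE 1.25, edgeR adjusted p = 0.000151). APCDD1, a Wnt inhibitor at the cell surface, had 613, 560 and 574 CPM in WT, 380, 365 and 337 in KO, and 363, 333 and 354 for OE. DKK3, of the dickkopf family, fell from 63.6 ± 3.03 CPM to 31.9 ± 2.36 and 33.0 ± 3.04, and its 2 line levels differed by -0.05 (95% interval -0.34 to 0.24). AXIN2, a common readout of the pathway, was not called in KO (-0.29) and was lower in OE (-0.55). In the Notch pathway NOTCH1 fell from 14.5, 8.31 and 15.9 CPM in WT to 0.467, 1.30 and 0.749 in KO and 5.50, 4.43 and 5.08 in OE, while HES6, a transcriptional regulator of the HES family, rose by 0.99 and 1.02, and LFNG, which modifies Notch, rose at levels of at most 2.27 CPM and lost its call without 7 of the 9 libraries (larger adjusted p up to 0.123). In the TGF-beta list TGFB2, a ligand, and ID3, a target, were lower in both, 2 of 19 tested; TGFB2 fell by -1.61 and -0.68, a call lost without WT replicate 1, WT replicate 3 or OE replicate 2 (larger adjusted p up to 0.0908), and ID3 by -1.06 and -0.78.

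On the higher side, the list with the greatest share was cholesterol biosynthesis, the chain of enzymes from acetyl-CoA to the substrate of steroid hormones. Of 27 genes tested, 7 were higher and 0 lower in both lines (25.9% and 0%), with a median change of 0.39. Among the 7, in pathway order, were MVK, IDI1, MSMO1, HSD17B7, SC5D and DHCR7. In KO alone 19 were higher and 2 lower, and in OE-labelled libraries 9 were higher and 0 lower. The rises in OE were small, between 0.37 and 0.47, and near the threshold. IDI1, which isomerises the isoprenoid building block, had 157, 196 and 164 CPM in WT, 300, 291 and 319 in KO, and 217, 240 and 220 for OE. DHCR7, a sterol reductase, had 312 ± 12.3 CPM in WT, 541 ± 37.3 in KO and 402 ± 27.3 in OE. MSMO1 and HSD17B7, which take part in the steps that remove methyl groups of the sterol ring, rose by 0.83 and 1.18 in KO and by 0.37 and 0.44 in OE. HSD17B7 and MVK each lost their call without 5 of the 9 libraries (larger adjusted p up to 0.126 and 0.162), and IDI1, MSMO1 and DHCR7 without 4 (up to 0.122, 0.11 and 0.0693). SC5D lost it without WT replicate 1 (larger adjusted p = 0.0762), and MSMO1 also with counts corrected for length (0.0689 in OE). The count depended on single libraries and on scaling: without WT replicate 1 it was 1 of 27, without WT replicate 3 2, without OE replicate 3 3, and without OE replicate 1 or 2 4. With library totals as the scaling it was also 1, and with counts corrected for length 9.

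SREBF1, which encodes a transcription factor of fatty acid and sterol synthesis, went the other way. It had 80.1, 59.5 and 70.9 CPM in WT, 24.3, 22.9 and 13.6 in KO, and 26.1, 26.3 and 27.1 for OE-labelled libraries. All engineered libraries were below 28, with log2 fold changes of -1.79 ± 0.19 (edgeR adjusted p = 6.03e-06) and -1.41 ± 0.19 (adjusted p = 0.000252). It was the single member of 15 fatty acid synthesis genes called in both lines. ABCG1, a sterol exporter, fell from 6.58 ± 0.341 CPM to 0.659 ± 0.566 in KO and 2.33 ± 0.505 in OE. SPTLC3, a subunit of the serine palmitoyltransferase that starts sphingolipid synthesis, was the 1 gene of 43 tested in the sphingolipid and sphingosine-1-phosphate list called in both lines: it fell from 21.3 CPM in WT to 13.8 in KO and 14.6 in OE (-0.63 and -0.56). That call was lost without 6 of the 9 libraries (larger adjusted p up to 0.165) and with counts corrected for length (adjusted p = 0.223 in OE). PTDSS1, which makes phosphatidylserine, rose by 0.38 in each line, a call lost without 5 of the 9 libraries (larger adjusted p up to 0.0918).

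Steroid synthesis genes were higher in both lines in 3 of 21 tested (14.3%) and lower in 0, with a median change of 0.38. SCARB1, the receptor that takes up cholesterol from lipoproteins, had 1220, 990 and 1050 CPM in WT, 1930, 1780 and 1680 in KO, and 1770, 2180 and 1860 for OE-labelled libraries. It rose by 0.73 ± 0.11 (edgeR adjusted p = 0.000201) and 0.83 ± 0.11 (adjusted p = 0.000252), with no overlap. HSD3B2, which makes progesterone and androstenedione, had 13.1, 14.7 and 13.6 CPM in WT, 25.1, 22.5 and 28.6 in KO, and 106, 96.0 and 107 for OE; reads shared with the near-identical HSD3B1 were left out of the counts, so its level is uncertain. FDX1, the electron donor of mitochondrial steroid enzymes, rose by 0.56 and 0.40, a call lost without 6 of the 9 libraries (larger adjusted p up to 0.20) and with counts corrected for length. Of the cAMP list, 3 of 31 were called in both lines, GNAS, the stimulatory G protein (-0.42 and -0.39), CRTC1, a coactivator of CREB (-0.64 and -0.67), and CREM, a cAMP-responsive transcription factor (0.38 and 0.41); the calls of GNAS and CRTC1 were lost with counts corrected for length, and GNAS was at 0.03 in OE there. GNAS and CREM lost their calls without WT replicate 1 or 3 (larger adjusted p up to 0.0806 and 0.066), and CRTC1 without 7 of the 9 libraries (up to 0.271).

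**Figure D4:**
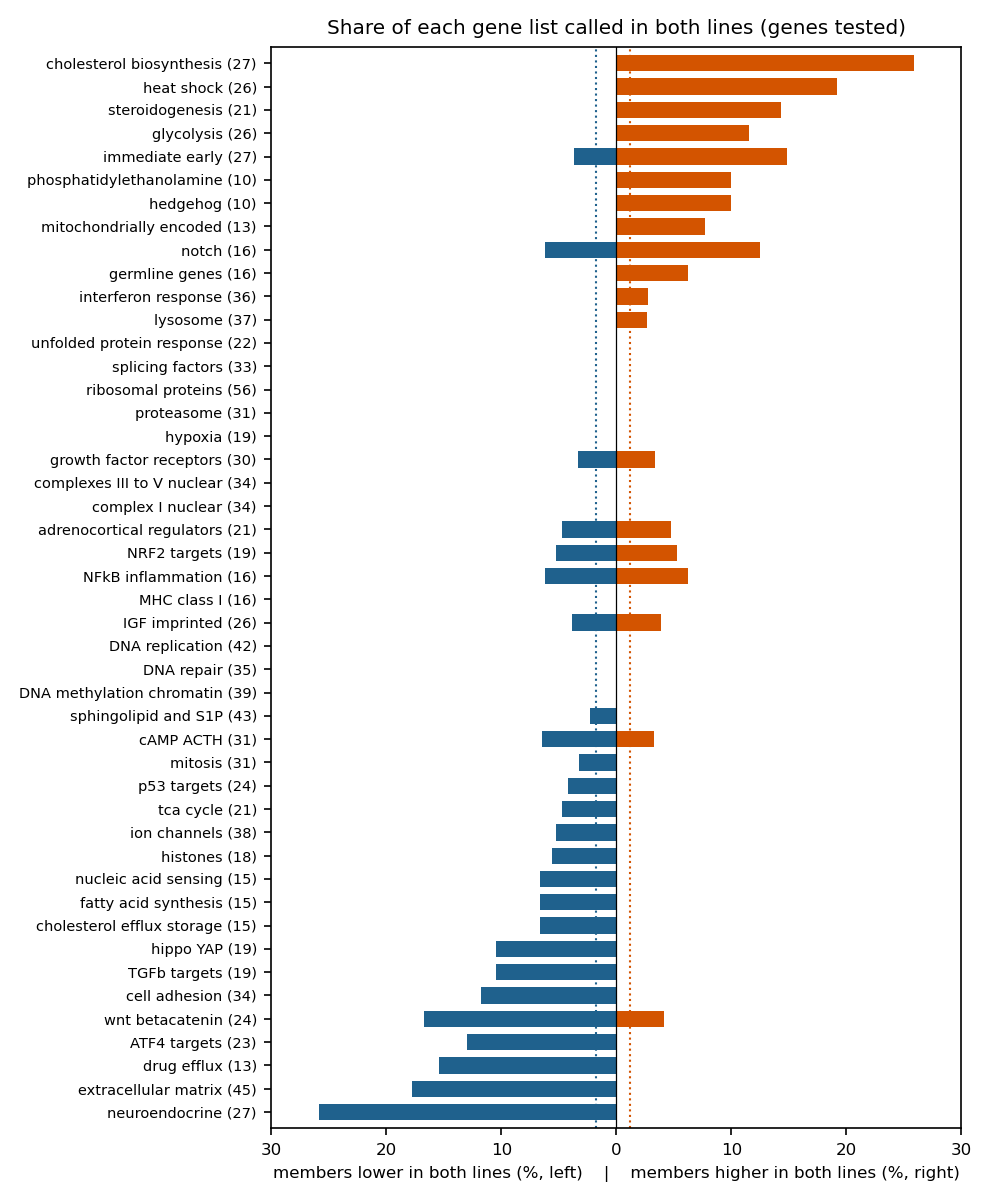
Share of the tested members of each gene list (number in brackets) that were lower (blue, left) or higher (orange, right) than WT in both lines; the dotted lines mark the same shares over all genes tested, 1.77% and 1.17%. Neuroendocrine and matrix genes stand at the lower end and cholesterol biosynthesis and heat shock genes at the upper, and lists such as ribosomal proteins, proteasome and DNA replication have no member called in both lines.

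Cytosolic and mitochondrial chaperones were higher in both lines in 5 of 26 tested (19.2%) and lower in 0, with a median change of 0.21. The 5 were HSPA8, HSPD1, HSPE1, DNAJB1 and CHORDC1. Heat shock factors, which drive many such genes, bind elements made of the bases GAA and their reverse complement TTC in alternation. The promoter windows of the 3 of these genes that hold a full element are printed from RefSeq (GRCh38.p14, 250 bases before to 50 after the start site, in the direction of transcription). They were picked for the match from a list of heat shock genes, so the element is not separate from the choice of genes. Capitals mark each match to TTCNNGAANNTTC or its reverse complement GAANNTTCNNGAA, searched on both strands, with overlapping matches run together.
HSPA8, chr11:123062087-123062386, minus strand: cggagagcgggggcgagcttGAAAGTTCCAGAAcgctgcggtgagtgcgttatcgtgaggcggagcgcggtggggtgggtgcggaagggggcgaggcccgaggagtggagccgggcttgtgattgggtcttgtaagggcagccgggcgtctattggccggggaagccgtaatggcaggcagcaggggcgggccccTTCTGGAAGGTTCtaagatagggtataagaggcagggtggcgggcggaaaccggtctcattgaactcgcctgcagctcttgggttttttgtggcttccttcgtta
CHORDC1, chr11:90223000-90223299, minus strand: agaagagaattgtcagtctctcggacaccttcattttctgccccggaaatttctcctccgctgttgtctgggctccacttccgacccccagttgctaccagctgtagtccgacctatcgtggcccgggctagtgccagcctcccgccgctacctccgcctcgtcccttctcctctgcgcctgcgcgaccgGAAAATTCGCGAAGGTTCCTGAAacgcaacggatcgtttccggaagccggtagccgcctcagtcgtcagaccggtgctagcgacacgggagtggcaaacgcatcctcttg
HSPD1, chr2:197499791-197500090, minus strand: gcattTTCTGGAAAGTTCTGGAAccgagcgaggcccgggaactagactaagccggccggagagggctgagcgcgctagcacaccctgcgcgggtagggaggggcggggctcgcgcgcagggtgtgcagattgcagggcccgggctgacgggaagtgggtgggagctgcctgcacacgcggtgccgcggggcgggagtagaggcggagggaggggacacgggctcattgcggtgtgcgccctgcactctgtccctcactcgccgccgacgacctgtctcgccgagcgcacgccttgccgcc

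HSPA8 has 2 separate matches, which begin 230 and 55 bases before the start site, CHORDC1 has 3 overlapping matches from 60 bases before it, and HSPD1 has 2 overlapping ones from 245 bases before it. The element was in 172 of 35116 promoter windows of the table (0.49%), in the windows of 51 of 10623 genes tested (0.48%), and in those of 6 of 23 tested chaperone genes. Of the genes higher in both lines, 5 of 129 with a window had it (3.88%), CHORDC1, HSPA8, HSPD1, BCAR3 and MRPL51, and of those lower in both, 0 of 185. The first 3 of these 5 are members of the chaperone list. DNAJB1 rose without a match in its window, and HSP90AA1 and HSP90AB1, with 1 and 2 matches, were not called in either line. HSPE1 had no match in its own window, but it is annotated from 197500140 and the HSPD1 window ends at 197500090. The HSPD1 match is at that end of the window, so it lies close to HSPE1 as well. A match is a description of the sequence.

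HSPA8, the constitutive cytosolic chaperone, had 1290, 1110 and 891 CPM in WT, 1570, 1560 and 1630 in KO, and 2160, 2140 and 2060 for OE-labelled libraries. The 3 groups were separate, with OE highest (0.53 ± 0.12, edgeR adjusted p = 0.00372, and 0.95 ± 0.12, adjusted p = 0.000135). HSPD1 and HSPE1, the chaperonin of mitochondria and its lid, are neighbouring genes on chromosome 2. HSPD1 had 1590, 1750 and 1460 CPM in WT, 2600, 2530 and 2740 in KO, and 1980, 2390 and 2370 for OE, and HSPE1 rose from 71.5 CPM to 122 and 128. DNAJB1, a partner of HSPA8, rose by 0.46 and 0.63. CHORDC1, a partner of HSP90, had 30.1, 26.4 and 31.1 CPM in WT, 35.6, 35.9 and 55.4 in KO, and 45.0, 42.3 and 45.5 for OE, and KO replicate 3 stood apart; the call was lost without any WT library, KO replicate 3 or OE replicate 3 (larger adjusted p up to 0.245). The stress-inducible HSPA1A was not called (-0.23 and 0.29), nor was HSF1, a heat shock factor (-0.09 and -0.16). Between 4 and 5 members were called without each library in turn. HSPA8 and HSPD1 have processed copies elsewhere in the genome, and MOB4, HSPE1 and HSPD1 overlap, so their levels are uncertain.

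Glycolysis genes were higher in both lines in 3 of 26 tested (11.5%) and lower in 0, with a median change of 0.29. The count was 2 without WT replicate 1, WT replicate 3 or OE replicate 2, and 5 without WT replicate 2. With library totals as the scaling it was 2, and with counts corrected for length 5. LDHA, which turns pyruvate into lactate, had 375, 436 and 335 CPM in WT, 584, 613 and 560 in KO, and 579, 609 and 575 for OE-labelled libraries. Its rise was 0.62 ± 0.11 in each line (edgeR adjusted p = 0.000751 and 0.00151) and the lines differed by 0.00 (95% interval -0.24 to 0.23). GAPDH rose by 0.49 and 0.51, and PKM, a pyruvate kinase, by 0.63 and 0.40, the latter lost without WT replicate 1, WT replicate 3 or OE replicate 2 (larger adjusted p up to 0.128). GAPDH and LDHA have many processed copies, so their levels are uncertain. Of genes encoded in mitochondria, MT-ND4, a complex I subunit, was called in both lines (0.50 and 0.84), 1 of 13 tested, and in the citric acid cycle IDH2 fell (-0.71 and -0.40), 1 of 21. The MT-ND4 call ended without replicate 2 of WT or KO or replicate 3 of KO (larger adjusted p up to 0.124), and IDH2 without 7 of the 9 libraries (up to 0.173). Complex I and complexes III to V had 0 of 34 and 0 of 34 nuclear genes called in both, and ribosomal proteins 0 of 56. Of all genes tested 2.95% were called in both in the same direction. In these 3 lists the medians in KO were -0.14, -0.11 and -0.34 and in OE 0.50, 0.50 and 0.58.

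Of 27 immediate early genes and related targets tested, ETV4, ETV5, DUSP5 and KLF10 were higher in both lines (14.8%) and FOSL2 lower (3.7%). In KO alone 8 were higher and 6 lower, and in OE-labelled libraries 5 higher and 2 lower. ETV5, a relative of ETV4, had 53.5, 53.7 and 66.7 CPM in WT, 125, 126 and 134 in KO, and 92.5, 88.1 and 106 for OE-labelled libraries. DUSP5, a phosphatase of ERK, had 31.2, 29.2 and 22 CPM in WT, 84.7, 77.8 and 68.2 in KO, and 38.7, 59.6 and 52.9 for OE. For both genes every engineered library was above WT and KO was above OE (KO minus OE 0.43, edgeR adjusted p = 0.0137, and 0.61, adjusted p = 0.00965). FOSL2, a subunit of AP-1, fell from 68.3 ± 9.65 CPM to 28.7 ± 3.77 and 34.1 ± 4.53. KLF10, a zinc finger factor, rose by 0.49 and 0.53 and lost its call without 7 of the 9 libraries (larger adjusted p up to 0.143). Of growth factor receptors and ligands, FGFR3, a fibroblast growth factor receptor, fell (-1.64 and -1.15) and EFNB1, an ephrin, rose (0.56 and 0.51), 1 of 30 each, and SHH, the Hedgehog ligand, rose by 1.29 and 0.72, 1 of 10 in its list. FGFR3, EFNB1 and SHH lost their calls without 5, 7 and 3 of the 9 libraries (larger adjusted p up to 0.0802, 0.0959 and 0.0717). IGFBP3, which binds insulin-like growth factors, fell from 26.2 CPM in WT to 4.22 in KO and 11.8 in OE, and the imprinted gene MEST rose by 0.33 and 0.34, 1 of 26 in each direction; MEST lost its call without 8 of the 9 libraries (up to 0.184).

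In the stress response governed by ATF4, 3 of 23 genes were lower in both lines (13%) and 0 higher; the count was 1 without WT replicate 3 and 2 to 4 without any other library. ATF4 itself had 122, 199 and 184 CPM in WT, 95.2, 101 and 105 in KO, and 78.4, 87.7 and 70.0 for OE-labelled libraries, a change of -0.74 ± 0.16 (edgeR adjusted p = 0.00303) and -1.1 ± 0.16 (adjusted p = 0.000417). WT replicate 1 was the lowest of the WT libraries and still above all 6. Its targets were uneven: SLC7A11, the cystine importer, fell by -0.83 and -0.66, and CHAC1, which degrades glutathione, had 2.04, 22.4 and 25.9 CPM in WT against 3.01 to 6.52 in the engineered libraries, so that WT replicate 1 lay below all of them. The call of SLC7A11 was lost without WT replicate 3, OE replicate 1 or OE replicate 3 (larger adjusted p up to 0.154) or with counts corrected for length (0.145 in OE), and that of CHAC1 without WT replicate 2 or 3 or any KO library (up to 0.177). CDKN1A, the p53 target p21, fell from 180.0 ± 17.8 CPM to 109 ± 8.88 and 125 ± 8.64, 1 of 24 p53 targets. NQO1, an oxidant-response reductase, rose by 0.45 and 0.91 (lost without 4 of the 9 libraries, larger adjusted p up to 0.099). OAS1, an interferon-induced enzyme, rose from 13.4 CPM to 23.5 and 24.0, the 1 gene of 36 interferon-response genes called in both, and MAVS, the adaptor of RNA sensing, fell from 44.9 to 21 and 23.6. LAPTM4B, a lysosomal membrane protein, rose by 0.52 in KO and 1.82 in OE, and ABCB4 and ABCA7, lipid transporters of the ABC family, fell by -1.02 and -0.66 and by -0.63 and -0.59. ABCA7 lost its call without WT replicate 1, WT replicate 3 or KO replicate 3 (larger adjusted p up to 0.0991) and with counts corrected for length (0.17 in OE).

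Few of the shared genes were not protein-coding: 157 of the 166 higher and 238 of the 251 lower were (94.6% and 94.8%, against 86.6% of all genes tested). LINC00540 on chromosome 13 had 0.678, 0.978 and 2.53 CPM in WT, 3.5, 6.92 and 5.35 in KO, and 4.40, 6.91 and 4.70 for OE-labelled libraries, a rise of 1.90 ± 0.43 and 1.91 ± 0.43 with no overlap. LINC03072 on chromosome 7 fell from 20.2 ± 2.17 CPM to 10.5 ± 0.942 and 8.81 ± 0.835. These kept their call without each library in turn and with counts corrected for length. LINC02381 rose by 1.09 and 0.57, ZNF503-AS2 by 0.63 and 0.76 and GOLPH3-DT by 0.95 and 0.75, and LINC02977 fell by -1.64 and -1; each lost its call without 3 or 4 of the 9 libraries (larger adjusted p up to 0.146, 0.0883, 0.162 and 0.161). GOLPH3-DT and LINC02977 also lost it with counts corrected for length (adjusted p in OE 0.0619 and 0.0657). CTNNA2-AS1 fell by -0.70 and -0.88 and lies within CTNNA2 on the other strand, whose own fall was -0.57 and -1.47; without strand in the counts the pair cannot be told apart where they overlap. The call of CTNNA2-AS1 was lost without WT replicate 1 or 2 or KO replicate 1 or 2 (larger adjusted p up to 0.14) and with counts corrected for length (adjusted p = 0.0645 in KO).

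The size of the shared change was compared between the lines by the KO minus OE contrast of the fit of all 9 libraries. Of the 166 genes higher in both, 42 differed between KO and OE (25.3%), 36 with the larger rise in KO and 6 in OE. Of the 251 lower in both, 70 differed (27.9%), 51 with the larger fall in KO and 19 in OE. Over all genes tested 39.7% differed. The shared genes were chosen for lying on the same side of WT in both lines, which affects their share, so the gap is not read as a result. For the other 124 and 181 genes no difference was called, and the 95% intervals of the difference had median half-widths of 0.31 and 0.45. Examples with wide gaps were DSG2 (KO minus OE -5.18), TSHR (-3.72), GPR183 (3.5), CYP19A1 (2.56) and HSD3B2 (-2.02), the last with the larger rise in OE.

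Transcript length moved with the shared calls. The genes tested were put in 5 groups of 2830 by exon length. The genes lower in both numbered 24, 37, 45, 65 and 80 from the shortest group (median 1777 nt) to the longest (10973 nt), and those higher in both 35, 52, 32, 25 and 22. Lower genes had a median length of 6743 nt, higher genes 4092 nt and all genes tested 5020 nt. The slope of a library's log2 CPM on log2 length, relative to the mean of the groups, came to 0.0558, -0.0528 and 0.103 for WT, to 0.0423, 0.0851 and 0.129 for KO, and to -0.0746, -0.204 and -0.083 for OE-labelled libraries, so WT replicate 2 and OE replicate 2 stood apart in their groups. With a length correction per library, 366 genes were higher and 238 lower in both lines, a split of 60.6% higher; 145 of the 166 and 192 of the 251 were among them, and the counts by length group became 61, 76, 66, 74 and 89 higher and 37, 43, 43, 56 and 59 lower. Without WT replicate 2 and OE replicate 2 together, 292 were higher and 424 lower, with 135 of the 166 and 212 of the 251 among them. The 8 matrix genes and the 7 neuroendocrine genes were called with either version of the counts, as lists with 8 and 7 lower. With the correction 1 matrix gene and 0 neuroendocrine genes were higher in both.

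**Figure D5:**
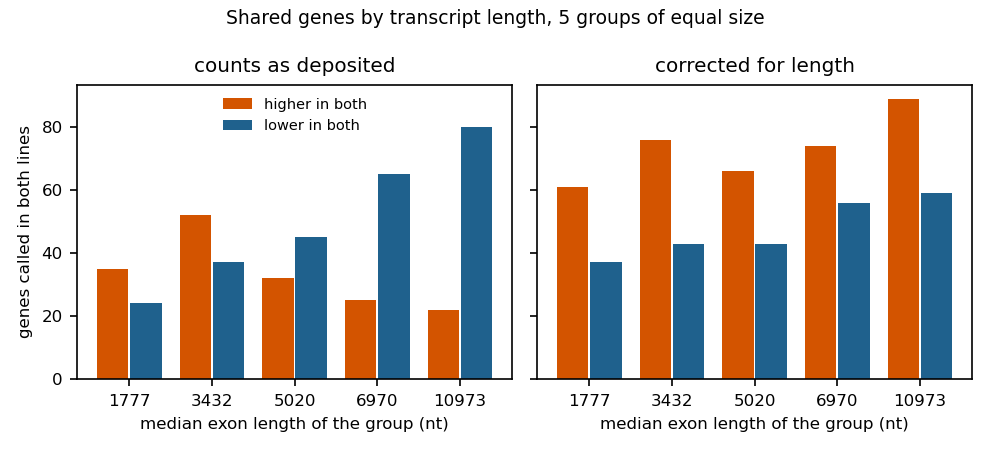
Number of genes higher (orange) and lower (blue) than WT in both lines in 5 groups of 2830 genes by exon length, with counts as deposited (left) and with a length correction per library (right). As deposited, the lower genes climb from 24 in the shortest to 80 in the longest group while the higher genes peak at 52 in the second; after correction the higher genes outnumber the lower in every group.

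Chromosome position also moved with the shared calls in KO. In KO, stretches of 51 neighbouring tested genes whose median was beyond 0.4 on the log2 scale held 4.88% of the genes tested, 14 of the 166 higher (8.43%) and 36 of the 251 lower (14.3%); the OE-labelled libraries had no such stretch. Chromosome 9 had 34 lower and 3 higher of 601 genes tested (5.66% lower), where the median of its genes was -0.26 in KO and -0.08 in OE. Chromosome 20 had 17 lower and 0 higher of 359 (4.74%; medians -0.19 and -0.03), and chromosome 15 had 19 higher of 476 (3.99%; medians 0.19 and -0.08), CYP19A1, TPM1 and MYZAP among them. Of the genes named, TDO2, HSD17B7 and GOLPH3-DT lay in KO stretches shifted upward (local medians 0.41, 0.43 and 0.48) and SERF1B, MAP1B, NOTCH1, FAXDC2, MAVS, CHGB, SPTLC3, ISM1 and HMMR in stretches shifted downward (-0.42 to -0.86), and the local medians in OE there were between -0.08 and 0.10. The part of such stretches in the KO values of these genes was not tested. HMMR, a mitotic spindle protein, fell by -1.25 in KO and -0.72 in OE, the 1 gene of 31 in the mitosis list called in both lines, and its call was lost without WT replicate 3 or OE replicate 3 (larger adjusted p up to 0.0581). Without all genes of these stretches, 152 were higher and 215 lower in both lines. The next tested gene along the chromosome was called in the same direction for 9 of the 166 higher (5.42%) and 18 of the 251 lower (7.17%). Of all genes tested 1.17% were higher and 1.77% lower in both. Pairs included COL3A1 with COL5A2, HSPD1 with HSPE1 and MOB4, NEFM with NEFL, SPTLC3 with ISM1, and PCDH18 with SLC7A11. Some pairs overlap, such as MYZAP with GCOM1 and CEP128 with TSHR, and were counted without strand. The part of overlap and of shifted KO stretches in these counts was not tested.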

How the data were processed

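RNA was sequenced from H295R cells in 9 libraries, 3 each of WT, KO and OE by title. The values are whole-number read counts per gene, deposited without normalization. Per the file headers, featureCounts 1.5.2 counted them on Ensembl release 101 (GRCh38) and no option besides annotation and output is listed; by default it ignores strand and drops reads with several alignments or several genes. The submitters' processing notes name FastQC, HISAT2 1.03, Subread, featureCounts 0.1.0 and DESeq2; the 2 sources differ on the featureCounts version. No source names a strand protocol. The files list 60671 genes, 0 lines lack an identifier, and 32845 genes have no count. Biotypes came from GENCODE release 29 (58453 genes) and promoter windows from RefSeq.

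Counts were tested with the quasi-likelihood test of edgeR 4.0.16 (R 4.3.3; filterByExpr at its minimum count of 10, then TMM factors) in 1 fit of all 9 libraries with a term for the group, on 6 residual degrees of freedom with a common biological coefficient of variation of 0.15. The filter left 14150 genes, 12258 protein-coding, and adjustment by Benjamini and Hochberg runs over them. A gene is called in both lines when its adjusted p is under 0.05 in KO against WT and in OE against WT, with the same sign. Every adjusted p comes from this test unless another tool is named. At 8006873 to 10895080 counts a library, the median SE of a log2 fold change was 0.187 for 1 line and 0.162 for the mean of both. Nothing says that the libraries of a group came from separate cultures, so each p-value reflects only the spread among them, part of which may be technical. No 2 libraries of a group agreed within sampling noise.

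The members and the 52 gene lists were chosen with earlier results of these data known, so no list is tested; lists are described by counts and medians. The text names SGPL1, the 15 protein-coding genes with the largest and the 15 with the most negative shared change (the smaller of both log2 fold changes) with at least 5 CPM in the highest group and no overlap of WT with the engineered libraries, 5 others each way by the same rule, and up to 4 members of each list by adjusted p. The remaining members of the matrix, neuroendocrine, cholesterol, chaperone, Wnt and immediate early lists, genes with a promoter match, neighbours and single uncalled genes were named after their values were seen. Alternatives were other scalings and filters, DESeq2 1.42.0, voom of limma 3.58.1, a length correction (loess, span 0.5, of log2 CPM on log2 exon length), the replicate block and left-out libraries. The fits were tested on simulated counts. Values of some genes that the rule names are not reported here.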

Additional observations from a re-analysis of the deposited data

Results flagged for a closer look

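For 37 of the 108 shared genes that the rule names, the change from WT differed in size between the lines by edgeR's test of KO minus OE (adjusted p under 0.05). Both lines lay on the same side of WT for these genes by choice. Of all genes tested 39.7% differed between KO and OE, so the count of 37 is not read as a result. Values are KO minus OE on the log2 scale; SGPL1 itself, which was called in KO alone, stood at -0.95.

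Among the genes higher in both, the rise was larger in KO for TDO2 (4.11, from few counts), GPR183 (3.5), CYP19A1 (2.56), VAT1L (1.79), NLRP2 (1.66), RERG (1.34), RBP5 (1.05) and ETV4 (0.87). The same held for HSD17B7 (0.74), DUSP5 (0.61), SHH (0.58), LINC02381 (0.52), MSMO1 (0.46), DHCR7 (0.43), IDI1 (0.43) and ETV5 (0.43). The rise was larger in OE-labelled libraries for HSD3B2 (-2.02), LAPTM4B (-1.3), CD82 (-0.54), NQO1 (-0.46) and HSPA8 (-0.42).

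Among the genes lower in both, the fall was larger in KO for DSG2 (-5.18), TSHR (-3.72), JCAD (-2.86), NOTCH1 (-2.55), ABCG1 (-1.79), MMP2 (-1.77), CDH11 (-1.67), IGFBP3 (-1.46) and GNAO1 (-1.33). Smaller gaps the same way were those of MMP14 (-1.01), TGFB2 (-0.93), MELTF (-0.71), HMMR (-0.53) and ABCB4 (-0.36). The fall was larger in OE-labelled libraries for NOTUM (1.25) and NRCAM (0.81). NOTCH1, HMMR, HSD17B7 and TDO2 lie in stretches of the genome whose genes were shifted as a whole in KO, and the part of these stretches in the gaps was not tested.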

How the results depend on the processing

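The counts of genes called in both lines (166 higher, 251 lower, 112 of them different between KO and OE) and of genes called for the mean of both (681 and 1019) stayed within 1.5 times of these values with edgeR's RLE or upper-quartile scaling, no filter, a minimum count of 30, DESeq2 (211 higher and 297 lower in both) and voom (151 and 261). With library totals alone, 80 were higher in both and 395 for the mean. With the length correction 366 were higher in both, 171 of the shared genes differed between the lines and 1319 were higher for the mean. Without WT replicate 2 and OE replicate 2 together the 5 counts were 292, 424, 216, 1139 and 1557. With KO and OE as 1 group the mean gave 19 and 41. When single libraries were left out, the ranges were 68 to 195 higher and 112 to 328 lower in both, 52 to 177 different between the lines, and 259 to 799 higher and 408 to 1317 lower for the mean. The lowest values came without WT replicate 1; 45 of the 166 and 80 of the 251 were called without each library in turn, as were 57 of the 108 genes other than SGPL1 that the rule names. Leaving out genes in shifted KO stretches, an alternative chosen after seeing the data, gave 152 and 215. The causes of these shifts were not tested.

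Correlations of same-numbered deviations ran from -0.138 to 0.246, and those of differently numbered ones from -0.281 to 0.224. These ranges overlap and do not decide whether the replicate numbers pair the libraries. The replicate block gave 244 higher and 342 lower in both and 174 different between the lines. The change of the mean of both lines kept its sign for the genes that the rule names under the alternatives run, while in OE-labelled libraries alone the length correction moved GNAS from -0.39 to 0.03 and SGPL1 from -0.01 to 0.18 (adjusted p = 0.883 and 0.3, edgeR); entering KO and OE as 1 group ended 78 of the 109 calls for the mean, a fit that adds the gap between the lines to the error. Depth limits TDO2 in OE-labelled libraries (2 to 6 counts each) and LFNG in WT (2 to 4).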

Other observations

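Several other lists had 1 or 2 members called in both lines, where 1.17% of all genes tested were higher and 1.77% lower in both. Of 38 ion channel genes 2 were lower in both. Among them CACNA1C, the pore of an L-type calcium channel, fell by -0.83 in KO and -0.56 in OE-labelled libraries. CACNA1C lost its call without 7 of the 9 libraries (larger adjusted p up to 0.249, edgeR) and with counts corrected for length (adjusted p in OE 0.871).

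Of 19 YAP targets 2 were lower in both lines. Among them AMOTL2, an angiomotin, fell from 12.9, 13.6 and 13.7 CPM in WT to 8.64, 7.02 and 7.81 in KO and 8.36, 5.12 and 8.28 in OE-labelled libraries, with no overlap. AMOTL2 lost its call without KO replicate 2 or 3 (larger adjusted p up to 0.0869, edgeR). In the NF-kappa-B list NFKBIZ, an atypical IkB protein, fell by -0.82 and -0.86 and RELB, an NF-kappa-B subunit, rose by 0.52 and 0.63, 1 of 16 in each direction; these calls were lost without 3 and 6 of the 9 libraries (up to 0.0619 and 0.172). MELTF, an iron-binding surface protein, fell from 15.6 ± 3.27 CPM in WT to 4.91 ± 1.01 in KO and 8.05 ± 1.87 in OE-labelled libraries (SD, n = 3), a call lost without WT replicate 1 (larger adjusted p = 0.072, edgeR).

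At high abundance the histone variant gene H2AZ2 fell from 1810, 1780 and 1770 CPM in WT to 1450, 1420 and 1540 in KO and 1310, 1410 and 1370 in OE-labelled libraries, with no overlap and log2 fold changes of -0.28 and -0.39. Its call was lost without 6 of the 9 libraries (larger adjusted p up to 0.171, edgeR) and with counts corrected for length (0.0789 in OE). MAGEC2, a cancer-testis gene, rose by 0.37 and 0.36 and lost its call without 7 of the 9 (up to 0.159) and with counts corrected for length (0.104 in OE). Lists with 0 members called in both lines in the same direction included the unfolded protein response (22 tested), hypoxia targets (19), MHC class I (16), DNA replication (42), DNA repair (35), the proteasome (31) and splicing factors (33). Of all genes tested 2.95% were so called, and for lists of this size a count of 0 is near that share and is not read as a result. In the proteasome list 22 genes were higher in OE-labelled libraries and 0 in KO, where 9.65% and 9.16% of all genes tested were higher.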
